A study of Mus musculus with 4 samples.

Results

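Granins and prohormone processing enzymes were followed in pancreatic islets of mice in which floxed Rb alleles were or were not present beside a Pdx1-Cre transgene. The 10 genes were Chga, Chgb, Scg2, Scg3, Scg5, Vgf, Pcsk1, Pcsk2, Cpe and Pcsk1n, of 26378 genes tested in all. They were chosen by name, and their probes were found through the RefSeq accession that the array files give for each probe. All 10 genes were represented, by 11 probes, and all 10 were well above background on all 4 arrays, so none was lost to the filter on dim probes.

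RNA of isolated islets from individual mice was hybridised to 1-colour Agilent mouse expression arrays, 1 array for each mouse. Control islets, named wild type in the sample titles, came from 2 mice of genotype Pdx1-Cre, and Rb-deficient islets came from 2 mice of genotype Pdx1-Cre:Rbf/f. Both groups therefore carried the Cre transgene, and they differed in the floxed Rb alleles. The Pdx1 promoter drives Cre across the pancreatic epithelium, that is in endocrine, acinar and duct cells and not in beta cells alone. The labels gave neither age nor sex.

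Islet hormones are made as long precursors that are packed into dense-core secretory granules. Granins are acidic proteins of the granule matrix that help to aggregate and sort this cargo. Prohormone convertases cut the precursors after pairs of basic residues, and carboxypeptidase E then trims the exposed basic residues from the ends. In islets the convertases of Pcsk1 and Pcsk2 turn proinsulin into insulin, and that of Pcsk2 turns proglucagon into glucagon.

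The retinoblastoma protein acts by binding E2F transcription factors, whereas cAMP response elements are known in the promoters of several granin and convertase genes. The upstream windows of 250 bases before each RefSeq start (GRCm38.p6) were therefore searched on both strands for both kinds of motif. Of the 10 genes, 8 had a window in the table used, and Vgf and Cpe had none. The palindromic cAMP response element TGACGTCA was found in 3 of these 8 windows, where 1.55% of all 32851 windows held it. The E2F motifs searched were TTTCCCGC, TTTGGCGC, TTTCGCGC and TTTGCCGC. None was found in the 8 windows, and 1.86% of all windows held at least 1 of them. The 3 matches lie in Chgb, Scg2 and Pcsk1, and all 3 are shown. Each line gives the gene strand 5′ to 3′ from 110 to 31 bases upstream of the start, with the element in capitals.
Chgb, chr2:132781532-132781611, plus strand: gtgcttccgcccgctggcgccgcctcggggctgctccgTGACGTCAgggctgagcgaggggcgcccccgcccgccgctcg
Scg2, chr1:79440057-79440136, minus strand: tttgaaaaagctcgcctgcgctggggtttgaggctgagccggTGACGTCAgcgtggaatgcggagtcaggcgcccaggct
Pcsk1, chr13:75089747-75089826, plus strand: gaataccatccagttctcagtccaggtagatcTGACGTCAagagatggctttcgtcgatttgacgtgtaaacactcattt

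The element began 72 bases upstream of the start in Chgb, 68 in Scg2 and 78 in Pcsk1. A match is a description of these letters, and no binding was measured. Variants of the motifs were not searched. Whether either kind of motif has a part in the differences between genotypes was not tested.

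The series as a whole sets the following frame. Rb1 itself was lower in Rb-deficient islets by both of its probes. The first probe read 0.28 and 0.86 on control arrays 1 and 2, and -0.48 and -0.90 on Rb-deficient arrays 1 and 2, and the other was 2.94-fold lower. Values here and below are log2 processed signal relative to the 75th percentile of the same array, unless another scale is named. No source used here places these probes inside or outside the floxed segment, so they are no check of the deletion. Control array 1 stood apart in 2 ways. It had 77.6% of spots well above background against 60.9% to 61.8% on the others, and it alone showed Y-linked signal (Eif2s3y at 1.15) and lacked Xist. By these transcripts it held a male and the other arrays held females, so results are also given without it.

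Islet hormones were bright on all arrays, with Ins2 between 9.89 and 10.45, Gcg between 7.96 and 9.44 and Sst between 8.87 and 9.37. All 10 beta cell markers, all 8 alpha cell markers and all 4 delta cell markers were measured on all arrays. Acinar markers were also present, all 12 of them, with Cela2a between 9.66 and 10.42. In bulk islets, fewer cells of a type and less RNA per cell cannot be told apart.

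No granin or processing gene passed the test between genotypes. After Benjamini-Hochberg adjustment across all genes, limma called 0 of the 10 genes, where 0% of all genes were called, and 0 of the 10 had an unadjusted p under 0.05, against 5.66% of all genes. Of the 10 genes, 5 were higher and 5 lower in mean in Rb-deficient islets, while 41.9% of all genes were higher. Their differences ran from -0.40 for Scg2 to 0.55 for Chgb, with a median of 0.01, where the median over all genes was -0.07. Of the 10 differences, 8 lay within 0.25 of 0 on the log2 scale, as did 51.6% of all genes. No gene of the 10 reached a 2-fold difference, which 9.73% of all genes did. These shares are over all genes, most of them dimmer than the 10. The median absolute difference was 0.08 for the 10 genes and 0.24 over all genes. It was 0.13 over the 2684 genes whose mean signal was at least that of the dimmest of the 10. The shares in that range were not counted.

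**Figure D1:**
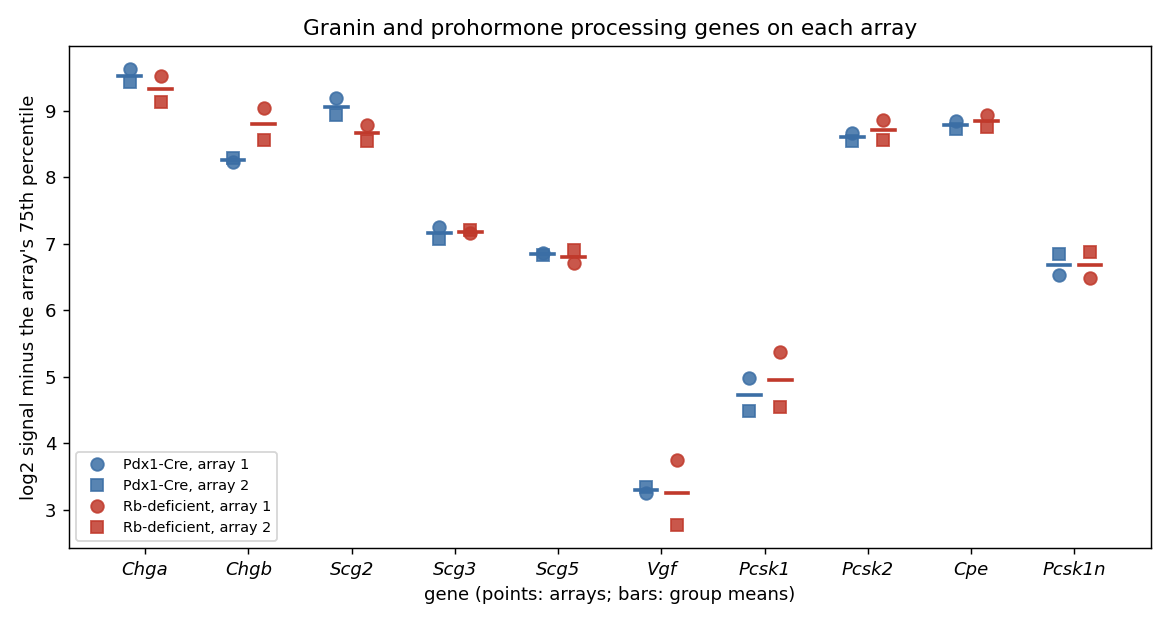
Log2 signal minus the array's 75th percentile (vertical axis) for each gene (horizontal axis), with a point for each array and a bar for each group mean. Chgb is the gene whose Rb-deficient points both lie above the control points, at 9.05 and 8.55 against 8.23 and 8.28, and Scg2 the gene whose Rb-deficient points both lie below them. Heights of different genes depend on their probes and are not compared.

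Chgb encodes chromogranin B, a major granin of insulin granules. Its signal was 8.23 and 8.28 in the control mice and 9.05 and 8.55 in the Rb-deficient mice. Both Rb-deficient values lay above both control values, and array 1 stood farther from them. The group means were 8.26 ± 0.04 (SD, n = 2) for the controls and 8.80 ± 0.35 (SD, n = 2) without Rb. The difference of 0.55 had a standard error of 0.25 and corresponds to 1.46-fold higher signal, with an adjusted p of 0.863 in limma (Benjamini-Hochberg). The 95% interval reached from -0.15 to 1.25, so neither an unchanged level nor a 2.37-fold higher level lies outside it.

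The array carries the Chgb probe on 10 spots, which gives an error within each array. The SD over the 10 spots was 0.03 and 0.04 on the control arrays and 0.04 on both Rb-deficient arrays. On Rb-deficient array 1 the spots lay between 8.99 and 9.13, and on Rb-deficient array 2 between 8.48 and 8.61. The means of these 2 arrays, from separate mice, lay 0.49 apart, and those of the control arrays 0.05 apart.

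Scg2 encodes secretogranin II, the precursor of secretoneurin. Its signal was 9.19 and 8.93 in the control mice and 8.79 and 8.54 in the Rb-deficient mice. Both Rb-deficient values lay below both control values. The means were 9.06 ± 0.18 (SD, n = 2) and 8.66 ± 0.18 (SD, n = 2), a difference of -0.40 with a standard error of 0.21. This is 1.32-fold lower signal, with an adjusted p of 0.863 in limma (Benjamini-Hochberg) and a 95% interval from -1.01 to 0.21.

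Chgb and Scg2 were the 2 genes of the 10 whose groups did not overlap, where 36% of all genes had groups that did not overlap. By direction, 15.3% of all genes lay above as Chgb did and 20.7% below as Scg2 did. An exact permutation test on 2 against 2 arrays cannot reach a two-sided p below 0.333, so none was run. Both differences were also the only ones of the 10 to exceed the larger gap between arrays of a group, as 22.6% of all genes did. Among the 2684 genes whose mean signal was at least that of Vgf, the dimmest probe of the 10, the median difference was 0.03. In that range, taken after the values were seen, 43 genes had a difference above that of Chgb and 171 a difference below that of Scg2.

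**Figure D2:**
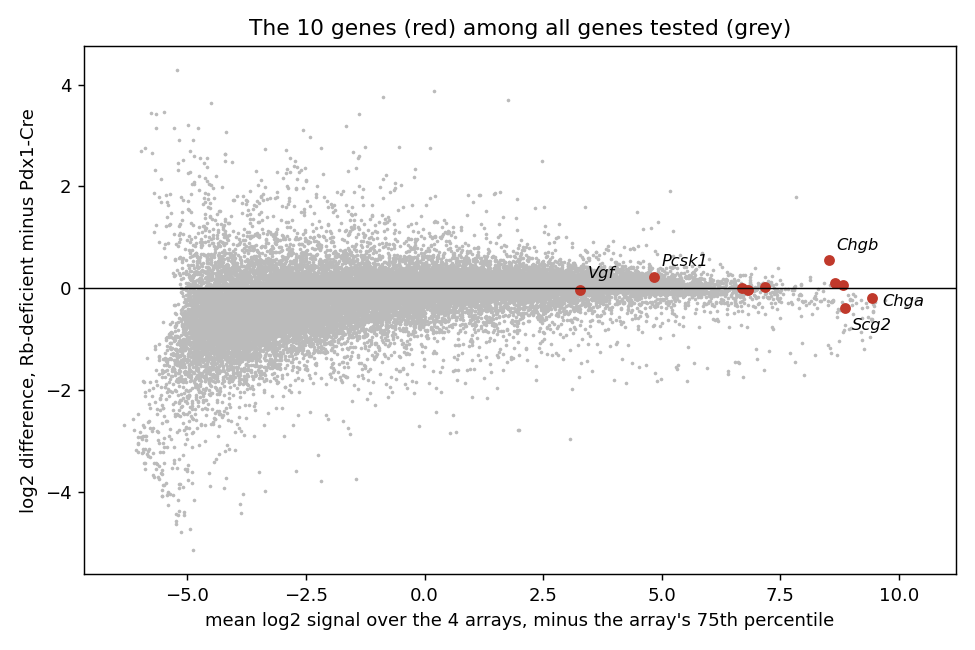
Log2 difference, Rb-deficient minus Pdx1-Cre (vertical axis), against the mean log2 signal over the 4 arrays minus the 75th percentile (horizontal axis), for 26378 genes in grey and the 10 granin and processing genes in red. The red points lie in the right part of the cloud, with Chgb at 0.55 above and Scg2 at -0.40 below the line at 0.

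Chga encodes chromogranin A, the precursor of pancreastatin and vasostatin. Its signal was 9.63 and 9.43 in the control mice and 9.52 and 9.13 in the Rb-deficient mice. The groups overlapped, since Rb-deficient array 1 lay between the control arrays, and their means differed by -0.20 (standard error 0.23). Of all genes with a symbol outside the 10, Ric8b and Iapp, the amylin precursor gene, had the patterns closest to it over the 4 arrays. Iapp read 9.16 and 8.99 in the control mice and 9.06 and 8.65 in the Rb-deficient mice, a root mean square difference of 0.02 from Chga after each gene's mean was subtracted. Such likeness is common, because 738 genes lay within 0.1 of Chga by this measure.

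Fewer genes lay near Chgb. By the same measure 13 genes lay within 0.1 of it. A small count is not particular to Chgb, since 22 genes lay within 0.1 of Pcsk1 and 25 within 0.1 of Vgf. The gene closest to Chgb was Pclo, which encodes the presynaptic scaffold piccolo. Pclo read 1.92 and 2.00 in the control mice and 2.79 and 2.32 in the Rb-deficient mice, a difference of 0.60. For Scg2, 324 genes lay within 0.1, led by Jph4, a junctophilin gene.

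Scg3 encodes secretogranin III, which binds chromogranin A and holds it at cholesterol-rich granule membrane. Its signal was 7.25 and 7.06 in the control mice and 7.17 and 7.20 in the Rb-deficient mice. Both Rb-deficient values lay between the control values, and the group means differed by 0.03 (standard error 0.18). The 95% interval from -0.49 to 0.55 reaches from 1.41-fold lower to 1.46-fold higher signal.

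Vgf encodes a neurotrophin-inducible granin that is cut into several peptides. Its brighter probe read 3.25 and 3.35 in the control mice and 3.75 and 2.77 in the Rb-deficient mice. The control values lay close together and the Rb-deficient values lay on either side of them, 0.98 apart, the widest gap between arrays of a group among the 10 genes. The other probe gave -1.25 and -1.32 in the control mice and -1.12 and -2.05 in the Rb-deficient mice, with a gap of 0.93. Both probes thus placed Rb-deficient array 1 highest and Rb-deficient array 2 lowest. The brighter probe differed between genotypes by -0.04 with a standard error of 0.40 in the fit over genes, and the other by -0.30 with a standard error of 0.38 in the fit over probes.

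Pcsk1 encodes prohormone convertase 1/3, which starts proinsulin cleavage. Its signal was 4.98 and 4.49 in the control mice and 5.37 and 4.54 in the Rb-deficient mice. The groups overlapped and both were widely spread, with means of 4.73 ± 0.34 (SD, n = 2) and 4.96 ± 0.59 (SD, n = 2). The difference of 0.22 had a standard error of 0.39, and its sign turned when control array 2 was left out (-0.02) and when Rb-deficient array 1 was (-0.19). The pattern closest to Pcsk1 was that of the imprinted gene Mest, at -1.71 and -2.15 in the control mice and -1.30 and -2.10 in the Rb-deficient mice.

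Pcsk2, the gene of prohormone convertase 2, was steadier. It read 8.67 and 8.55 in the control mice and 8.86 and 8.56 in the Rb-deficient mice, a difference of 0.10 with a standard error of 0.21. Rb-deficient array 1 was the highest, and Rb-deficient array 2 lay between the control arrays. Cpe, the gene of carboxypeptidase E, read 8.84 and 8.73 in the control mice and 8.94 and 8.75 in the Rb-deficient mice, a difference of 0.06 with a standard error of 0.19. Across the 4 arrays Pcsk2 and Cpe were the most alike of all pairs of the 10 genes, with a root mean square difference of 0.04 after each gene's mean was subtracted. Chgb and Scg2 stood 0.49 apart by this measure, and Pcsk1 and Pcsk1n, which encode an enzyme and its inhibitor, 0.53.

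Scg5 and Pcsk1n encode small proteins that act on the convertases. Scg5 encodes 7B2, which escorts the precursor of convertase 2 and whose end inhibits the enzyme, and Pcsk1n encodes proSAAS, an inhibitor of convertase 1/3. Scg5 read 6.87 and 6.83 in the control mice and 6.71 and 6.91 in the Rb-deficient mice, a difference of -0.04 with a standard error of 0.19. Pcsk1n, on chromosome X, read 6.53 and 6.84 in the control mice and 6.48 and 6.88 in the Rb-deficient mice, a difference of -0.003 with a standard error of 0.25. For both genes the groups overlapped, with Rb-deficient array 1 the lowest and Rb-deficient array 2 the highest of the 4 arrays.

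**Figure D3:**
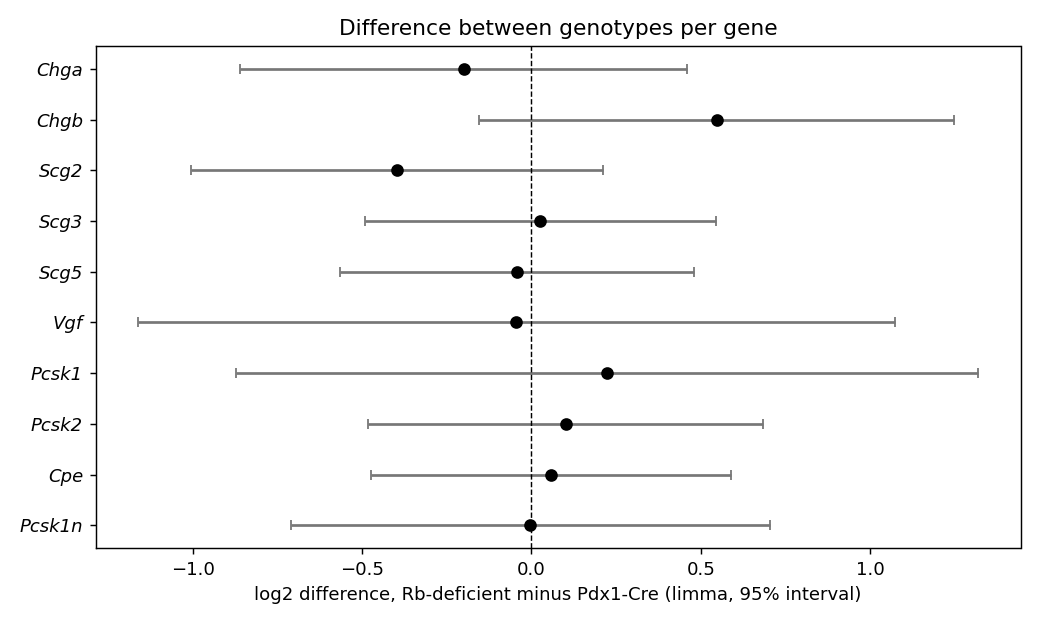
Log2 difference, Rb-deficient minus Pdx1-Cre (horizontal axis), for each gene (vertical axis), with the 95% interval from limma. All 10 intervals include 0; that of Scg3 spans -0.49 to 0.55 and that of Pcsk1 -0.87 to 1.32.

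The arrays of a group thus did not order the genes in 1 direction. Rb-deficient array 1 held the highest value of 5 genes, Chgb, Vgf, Pcsk1, Pcsk2 and Cpe, where it held the highest value of 17.8% of all genes, and the lowest value of Scg5 and Pcsk1n. Rb-deficient array 2 held the lowest value of Chga, Scg2 and Vgf. Control array 2 held the lowest value of 4 genes, Scg3, Pcsk1, Pcsk2 and Cpe, and control array 1 the highest of 3, Chga, Scg2 and Scg3. The share of all genes with their lowest value on a given array was not counted. On Rb-deficient array 1 Pcsk1 lay 0.64 and Vgf 0.45 above the control mean, and on Rb-deficient array 2 they lay -0.19 and -0.54 from it. Markers of other cells also differed between these arrays. The 12 acinar markers lay in median -0.32 and -1.13 from the control mean on Rb-deficient arrays 1 and 2, the 8 alpha cell markers -0.58 and -1.14 and the 11 macrophage markers 0.37 and 1.53. The summed linear signal of the acinar list, in multiples of the 75th percentile, was 9808 and 7982 in the control mice and 7250 and 4295 in the Rb-deficient mice. That of the alpha cell list was 839 and 862 against 735 and 349, and that of the macrophage list 45.7 and 44.2 against 50.003 and 41.9. On Rb-deficient array 2 the macrophage sum was thus the lowest, although the median marker was higher. The part of these other cells in the values of the 10 genes was not tested.

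Differences between genes on the same array do not depend on the constant by which an array is scaled. Chgb minus Scg2 was -0.96 and -0.65 in the control mice and 0.26 and 0.02 in the Rb-deficient mice. The ratio of Chgb to Scg2 signal was therefore 1.92-fold higher in Rb-deficient islets, a log2 difference of 0.94, and the groups did not overlap. Chgb had the highest and Scg2 the lowest difference of the 10 genes, so theirs is the widest of the pairs. Its lack of overlap follows from that of the 2 genes and adds no support. The log2 difference of this ratio ran from 0.79 to 1.10 over the 6 alternatives that move it. These are normexp, quantile normalization and leaving out each array. The range describes a pair picked by its values. Chgb minus Chga was likewise higher, since Chga minus Chgb was 1.40 and 1.14 in the control mice and 0.47 and 0.58 in the Rb-deficient mice. Of the 45 pairs among the 10 genes, 17 had groups that did not overlap, 7 of the 9 pairs with Chgb and 7 of the 9 pairs with Scg2. Chga, whose own groups overlapped, had 6 of its 9 pairs without overlap, so such a count is not particular to Chgb and Scg2. Those 2 genes were also picked by these same values, and no share was counted for the pairs of other genes without overlap. Over all pairs of tested genes the share was 37%, so the count of 17 lies near the background, and the pairs share arrays and genes.

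Insulin transcripts, the main substrate of the processing enzymes in beta cells, were set against the 10 genes in the same way. This comparison, like that of the 45 pairs, was chosen after the values were seen. Relative to Ins2 on the same array, 9 of the 10 genes were higher in mean in Rb-deficient islets, with a median difference of 0.23. Ins2 itself differed by -0.22, at 10.45 and 10.27 in the control mice and 10.40 and 9.89 in the Rb-deficient mice. Subtracting it raises the difference of every gene tested by the same amount, and the share of all genes higher in mean on this scale was not counted. Ins2 read above Chga on every array, and Chga itself lay at percentile 99.96 or higher. No spot was marked as saturated, and whether the signal flattens so near the top of the range was not tested. In 4 genes both Rb-deficient ratios lay above both control ratios, in Chgb, Pcsk1, Pcsk2 and Cpe, where 16.8% of all genes did so. In 1 gene, Scg2, both lay below, where 12.8% of all genes did so. Both shares are over all genes, most of them dimmer than the 10. Before Ins2 was subtracted, the groups of Pcsk1, Pcsk2 and Cpe overlapped, with differences of 0.22, 0.10 and 0.06. Their separation on this scale thus appears only with the lower Ins2. Against Ins1 the counts were 5 and 1, and the background shares 20.3% and 12.1%.

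The log2 ratio of Chgb to Ins2 was -2.22 and -1.99 in the control mice and -1.35 and -1.34 in the Rb-deficient mice, a 1.70-fold difference. Its Rb-deficient values, which lay 0.49 apart on the first scale, thus lay close together when Ins2 of the same array was subtracted. The control values moved apart instead, with an SD of 0.16 (n = 2) against 0.04 on the first scale. Pcsk1 to Ins2 was -5.47 and -5.78 against -5.03 and -5.35, a 1.36-fold difference. Pcsk2 to Ins2 was -1.78 and -1.72 against -1.54 and -1.33, a 1.25-fold difference. Cpe to Ins2 was -1.61 and -1.55 against -1.46 and -1.14, a 1.21-fold difference. Over the same 6 alternatives the genotype difference of these log2 ratios ran from 0.65 to 0.88 for Chgb, 0.21 to 0.60 for Pcsk1, 0.21 to 0.44 for Pcsk2 and 0.11 to 0.46 for Cpe. That of Scg2 ran from -0.31 to 0.004, and it was above 0 with quantile normalization. With quantile normalization Ins2 itself differed by 0, so there the values are each gene's own difference.

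**Figure D4:**
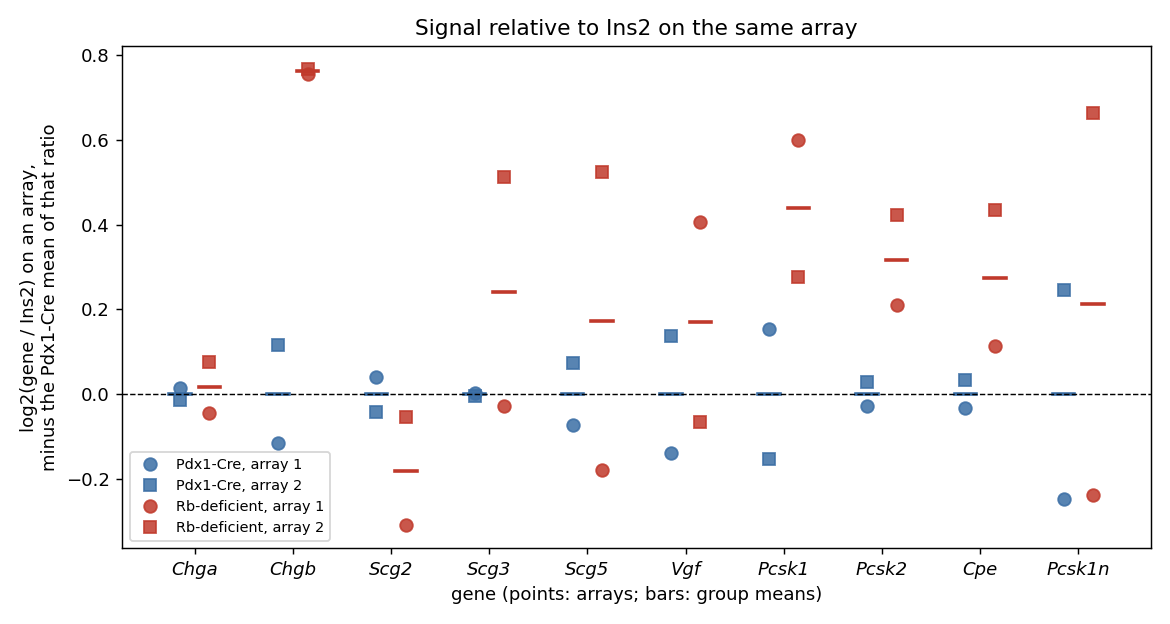
Log2 ratio of each gene to Ins2 on the same array, minus the control mean of that ratio (vertical axis), for each gene (horizontal axis), with a point for each array and a bar for each group mean. In Chgb, Pcsk1, Pcsk2 and Cpe both Rb-deficient points lie above the control points; in Scg2 both lie below.

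The convertases outside the 10 genes, which work mostly in other compartments, gave no call either. Of 7 listed, 6 were measured, 3 higher and 3 lower, with a median difference of -0.0036. With array median scaling 5 were higher and 1 lower, and without control array 1 the counts were 2 and 4. Furin, the convertase of the trans-Golgi network, differed by -0.09 with a standard error of 0.18. Mbtps1, the site-1 protease gene, differed by 0.08 and its other 3 probes by values between -0.04 and 0.06.

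Of 9 enzymes that trim or amidate peptides, 8 were measured, 3 higher and 5 lower, and none passed the test. With array median scaling 5 were higher and 3 lower, and the counts were the same without control array 1. Pam, which makes the amidated end of many peptide hormones, read 1.83 and 2.85 in the control mice and 1.37 and 1.41 in the Rb-deficient mice, a difference of -0.95 with a standard error of 0.41. Both Rb-deficient values lay below both controls, but its other probe differed by -0.21. Qpct, which forms pyroglutamate ends, was 2.18-fold higher in mean, with -2.62 and -1.84 in the control mice and -1.81 and -0.40 in the Rb-deficient mice. Cpd, a relative of Cpe in the trans-Golgi network, read 2.37 and 2.38 against 2.50 and 2.57, a difference of 0.16, and 0.17 in its other probe.

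All 15 listed genes of granule biogenesis and sorting were measured, 6 higher and 9 lower, with a median of -0.07 and no call. These counts depend on the processing. With array median scaling all 15 were higher, with a median of 0.37. Without control array 1 the list held 9 higher and 6 lower, with a median of 0.02. Ptprn, the granule membrane protein IA-2, had the largest difference, 0.50, with 0.02 in its other probe. Ptprn2, its relative phogrin, read 6.52 and 6.66 in the control mice and 6.52 and 6.50 in the Rb-deficient mice. Of 7 other granule cargo genes 2 were higher and 5 lower. The counts were 6 and 1 with array median scaling, and 3 and 4 without control array 1. Slc30a8, the zinc transporter of insulin granules, read 6.20 and 6.41 against 6.55 and 6.63, without overlap. Npy, neuropeptide Y, read 0.01 and 1.01 against -0.26 and -0.98, a difference of -1.13 with a standard error of 0.48.

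The substrates of the enzymes gave no call. Of 10 prohormone genes 9 were measured, 3 higher and 6 lower, with a median of -0.22 that stood at 0.22 with array median scaling and at 0.24 with quantile normalization. Ghrl, the precursor of ghrelin, read -2.12 and 0.92 in the control mice and -3.46 and -4.31 in the Rb-deficient mice, and Gcg 9.34 and 9.44 against 9.26 and 7.96. The groups of Gcg did not overlap, and Rb-deficient array 2 stood apart from the other 3. Sst, the somatostatin precursor gene, read 9.37 and 9.26 against 9.31 and 8.87, and its groups overlapped.

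Of 12 transcription factors known to act on neuroendocrine genes, 9 were higher in mean in Rb-deficient islets, where 41.9% of all genes were higher. Their median difference was 0.19, and none passed the test. With quantile normalization 10 were higher, and with array median scaling 11. The median was 0.15 with quantile normalization and 0.62 with array median scaling, which adds the same constant to every gene. In 4 of the 12 both Rb-deficient values lay above both controls, where 15.3% of all genes did so. Insm1, a zinc finger repressor of islet endocrine cells, read 4.99 and 5.23 in the control mice and 5.49 and 5.53 in the Rb-deficient mice, a difference of 0.40 with a standard error of 0.19. Pax6 read 3.09 and 3.45 against 3.56 and 3.64, a difference of 0.34, and its other 3 probes gave 0.09 to 0.27. Rest, the repressor that silences Chga, Scg2 and other neuroendocrine genes in most tissues, read -3.13 and -3.19 against -3.91 and -3.42, a difference of -0.50 with a standard error of 0.25. In limma the adjusted p (Benjamini-Hochberg) of these 3 was 0.86. Creb1, whose protein binds the element printed above, differed by -0.01.

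Across the processing alternatives none of the 10 genes was called, and the lowest adjusted p of any was 0.470 in limma (Benjamini-Hochberg). Chgb was higher in mean in Rb-deficient islets by 0.30 to 0.98 over the 8 alternatives that move its difference, with the lowest value without Rb-deficient array 1. Scaling each array to its median instead of its 75th percentile moved the median of all genes from -0.07 to 0.37, and with it all 10 genes were higher, in median by 0.45. Quantile normalization placed 9 of the 10 above 0, with Chga at 0.25, Scg2 at 0.004 and Vgf at -0.10. The sign of a single gene's difference other than that of Chgb thus depends on the scaling or on the arrays used, and the within-array ratios above are the values that do not depend on a scaling constant. Without control array 1 Chgb differed by 0.52 and Scg2 by -0.27.

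**Figure D5:**
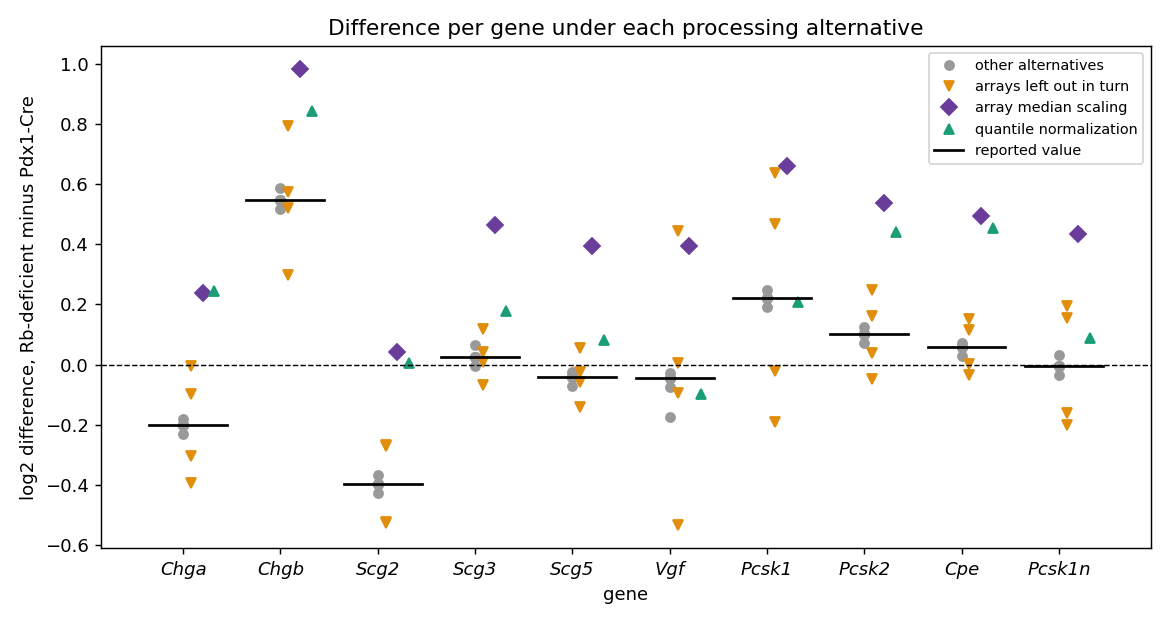
Log2 difference, Rb-deficient minus Pdx1-Cre (vertical axis), for each gene (horizontal axis), as reported (black line) and under each of the 14 alternatives (points). Chgb lies above 0 throughout, from 0.30 to 0.98, and array median scaling lifts all 10 genes above 0.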

How the data were processed

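Expression was measured on 4 single-colour arrays, 2 of each genotype, with groups taken from the titles. Each deposited scanner file gives the intensity of every spot, read with Agilent Feature Extraction 12.0.3.1 on an mm9 design, per the file headers, background-subtracted and with no scaling between arrays. Spot marks were a further column of the files, per the file headers. A deposited value table held the same intensity values times a constant for each array, 2.44, 2.15, 2.49 and 1.74, and was used as an alternative. All arrays shared 1 slide.

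Spots marked as outliers (64 to 93 per array) were dropped. Processed signals were divided by the 75th percentile of non-control spots of their array, put on the log2 scale and averaged over the spots of a probe. Accessions were named through RefSeq (GRCm38.p6), which matched 32989 of 56598 probes. Probes well above background on both arrays of a group were kept, and the probe with the highest mean stood for a gene. Genotypes were compared with limma 3.58.1 (R 4.3.3; lmFit, eBayes, two-sided, no covariates; Benjamini-Hochberg adjustment, threshold 0.05), after the code was tested on simulated data. It had 2 residual degrees of freedom and a prior worth 1.82. Precision is limited by the number of arrays. Replicates were individual mice, per the labels.

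The members, lists and alternatives were chosen with earlier results of these data known. All 10 members are described. Of the lists, at most the 3 genes with the smallest p and the 2 brightest are named, and Creb1, Furin and Pax6 were named outside this rule after values were seen. 1 gene that the rule names is not reported here. Likeness was the root mean square difference of centred values over the 4 arrays. The planned normexp correction used the median spot signal, since the files hold no mean.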

Additional observations from a re-analysis of the deposited data

How the results depend on the processing

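Of 140 differences of single genes under 14 alternatives, 59 kept the reported value and 81 moved; of the latter 60 kept their direction and 21 did not. None passed the threshold. With the array median as scale, limma called 480 genes in all. That fit gave the prior infinite weight, so the spread of a single gene did not count and each of the 10 genes had a standard error of 0.55. The median of the 10 genes was 0.45, and Chga stood at 0.24, Scg2 at 0.040, Scg5 at 0.40, Vgf at 0.39 and Pcsk1n at 0.43. With quantile normalization that median was 0.19, and Chga stood at 0.25, Scg2 at 0.0036, Scg5 at 0.081 and Pcsk1n at 0.087. Pcsk1n was at 0.031 with normexp, and Scg3 at -0.0034 in the deposited value table. Leaving out 1 array at a time gave 0 to 4101 called genes, the latter without control array 2, and differences of -0.066 to 0.12 for Scg3, -0.14 to 0.056 for Scg5, -0.54 to 0.45 for Vgf, -0.19 to 0.64 for Pcsk1, -0.047 to 0.25 for Pcsk2, -0.036 to 0.15 for Cpe and -0.20 to 0.19 for Pcsk1n. The cause of these shifts was not tested. Samples of the groups share replicate numbers but no stated pairing; same-numbered arrays deviated together with r = 0.295 over genes, and the replicate block called 0 genes and moved the count at an unadjusted p under 0.05 from 1493 to 3160. With 2 arrays a group, the fits after leaving out 1 assume that the lone array varies like the others. A block for the slide could not be fitted, since all arrays shared it.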
